A study of Homo sapiens with 60 samples.

Results

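The comparison described here set HT29 cells given a high dose of an ethanol extract of Cnidii Rhizoma, the dried rhizome of a plant used in East Asian medicine, against HT29 cells given a low dose of the same extract. HT29 is an established epithelial line grown from a human colorectal adenocarcinoma. The labels give 3 libraries at the high dose (500 µg/mL) and 3 at the low dose (20 µg/mL), all harvested 24 h after treatment, out of 60 libraries in the series. They also give 3 libraries at a medium dose (100 µg/mL), used here only to place levels, and 3 vehicle libraries labelled 0.1% DMSO. The series text states 2% DMSO for the vehicle, and the difference was not resolved. The other libraries carry extracts of other tonifying plants or 2 plant formulas in the same cells. Among them Rehmanniae Radix Preparata, Paeoniae Radix and Cinnamomi Cortex were given at 500 and 20 µg/mL with 3 libraries each and served for comparison. No group differed in genotype. Members were taken by title, and the column code in each label matched the count table.

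HT29 cells hold features of both absorptive and secretory colon epithelium. Absorptive cells import nutrients, oxidise fatty acids, conjugate and export foreign compounds, and seal the gut wall through claudins and a layer of transmembrane mucins. Proteins bound for the membrane or for secretion are folded in the endoplasmic reticulum (ER). When folding lags there, the unfolded protein response acts through the factors ATF6 and XBP1 on ER chaperone genes, and through ATF4 on amino acid supply. NRF2 is a separate factor that turns on genes of redox defence.

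The 6 libraries held 23265460 to 26335770 expected counts and 21657 to 22176 detected genes, and mitochondrial genes took 7.67 to 9.12% of counts. Library 3 of the high dose had the highest mitochondrial share, 9.12%, against 7.74 and 8.0% in the other high-dose libraries and 7.67 to 8.3% at the low dose. Whether replicates came from separate cultures is not in the labels. Each p-value therefore reflects spread among libraries that may be no more than technical. In bulk RNA, fewer cells of a type and less RNA per cell cannot be told apart. All 10 defining markers of colon epithelium were present, with a summed level of 12521 to 12966 CPM (counts scaled to a common library total) at the low dose and 9695 to 9941 at the high dose. Fibroblast markers summed to at most 2.47 CPM with COL1A2 and DCN at 0, endothelial markers to at most 3.06 CPM with KDR and EMCN at 0, and leukocyte markers to 10.5 to 12.4 CPM. At the high dose 2011 genes were higher (12.1% of the 16608 tested) and 1922 lower (11.6%) than at the low dose, in edgeR's quasi-likelihood test with Benjamini-Hochberg adjusted p under 0.05. Counts of list members called in this test are to be read beside these shares. Most changes were small: 1568 of the higher and 1447 of the lower genes changed by less than 0.5 on the log2 scale, and 139 and 165 changed by 1 or more. Scaling to library totals in place of TMM factors shifted the median of all genes to a log2 change of -0.05 and gave 1384 higher and 2775 lower. High-dose and low-dose libraries did not overlap in CPM at 37.1% of tested genes (12.5% above and 24.6% below). The low dose itself differed from vehicle at 21.4% of genes and the high dose at 38.3% (20.2% higher and 18.1% lower). In the vehicle libraries mitochondrial genes took 9.41 to 12.3% of counts, more than in any of the 6 libraries. Whether this bears on comparisons with vehicle was not tested. At the same pair of doses 1.43% of genes changed with Rehmanniae Radix Preparata, 9.51% with Paeoniae Radix and 6.08% with Cinnamomi Cortex. For Cnidii Rhizoma the medium mean lay between the low and high means for 1474 of the 2011 higher and 1712 of the 1922 lower genes.

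The largest rises outside the NRF2 list used here were in lipid oxygenases, an amino acid importer and a secretory cell factor. They were ranked among genes with a mean of 2 CPM or more in the higher group. That list holds 31 genes, so genes named here can still be NRF2 targets. CYP4F11, a cytochrome P450 that hydroxylates fatty acids and vitamin K (ENSG00000171903, chromosome 19, 15912367 to 15934867, minus strand), stood at 14.0, 12.5 and 11.9 CPM in the high-dose libraries and at 1.19, 1.03 and 0.924 at the low dose (log2 change 3.65 ± 0.17 SE, adjusted p = 2.9e-22). CYP4F3, its neighbour in the same gene cluster, which inactivates leukotriene B4 (ENSG00000186529, chromosome 19, 15640897 to 15662825, plus strand), stood at 15.9, 14.4 and 13.8 against 2.03, 1.35 and 1.96 CPM (3.09 ± 0.14, adjusted p = 3e-22). For both genes every high-dose library was above every low-dose library. The medium-dose libraries, at 1.84 to 2.64 CPM for CYP4F11 and 2.61 to 3.05 for CYP4F3, lay above all low-dose and below all high-dose libraries. Their means were 2.18 and 2.79 CPM. CYP4F genes are close in sequence, so the share of reads given to each is uncertain.

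SLC38A4, a sodium-coupled importer of neutral and cationic amino acids (ENSG00000139209, chromosome 12, 46764761 to 46832408, minus strand), stood at 46.0, 48.1 and 45.5 CPM in the high-dose libraries against 3.56, 3.81 and 4.50 at the low dose (3.60 ± 0.12, adjusted p = 1.2e-27). Its medium-dose libraries, at 10.0, 10.2 and 10.8 CPM, lay above all low-dose and below all high-dose libraries. BHLHA15, also called MIST1, a transcription factor that builds the secretory machinery of exocrine cells (ENSG00000180535, chromosome 7, 98211427 to 98212979, plus strand), stood at 4.04, 4.03 and 4.86 CPM against 0.613, 0.595 and 0.731 (2.78 ± 0.23, adjusted p = 2.7e-13). At the medium dose it was at 0.904, 0.706 and 0.696 CPM, which overlapped the low dose, so the rise lay between 100 and 500 µg/mL. LRRC31, a leucine-rich repeat protein of epithelia, went from 1.17 ± 0.253 (SD, n = 3) to 5.30 ± 0.227 CPM (2.23 ± 0.15), and GCKR, the regulator of glucokinase, reached 1.86 to 2.71 CPM against 0.230 to 0.516. The other genes among the 15 largest rises included the corepressor HR (2.02 ± 0.12), the esterase AADAC (1.83 ± 0.14), the eicosanoid-reducing enzyme PTGR1 (1.70 ± 0.04) and the zinc finger gene ZNF469 (1.65 ± 0.23).

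**Figure D1:**
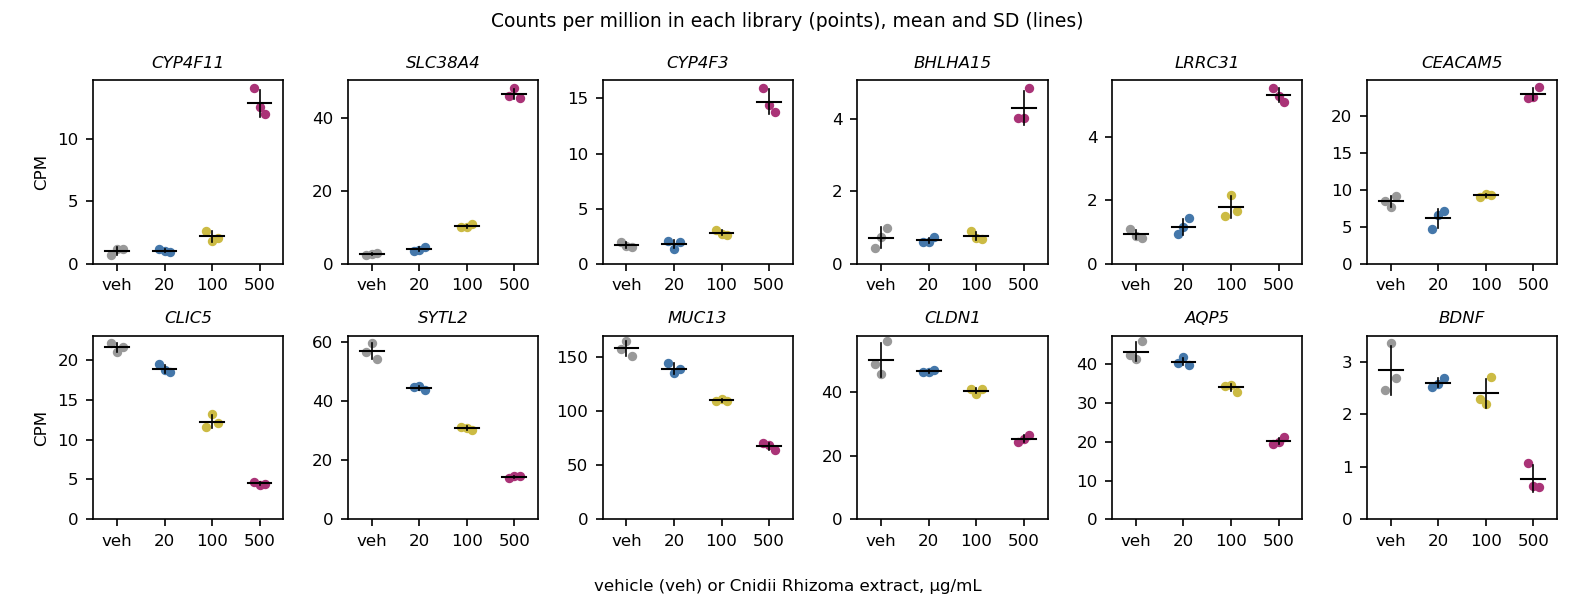
CPM of 12 genes (y axis of each panel, linear from 0) in vehicle and in Cnidii Rhizoma extract at 20, 100 and 500 µg/mL (x axis); points are libraries, horizontal lines means and vertical lines SD of 3 libraries. In the top row the 500 µg/mL libraries lie above all others, and BHLHA15 stays near 0.769 CPM at 100 µg/mL; in the bottom row CLIC5 and SYTL2 fall at each step while BDNF is low only at 500 µg/mL.

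Genes of ER folding rose almost without exception. Of 20 ER chaperones and folding enzymes, 19 rose and none fell, with a median log2 change of 0.70 against -0.00 over all genes tested. ERO1B, an oxidase of disulfide bond formation, was the member not called, at 0.759 to 0.836 against 0.421 to 0.675 CPM (0.68 ± 0.27, adjusted p = 0.072). HSPA5 encodes BiP, the main ER chaperone of the HSP70 family (ENSG00000044574, chromosome 9, 125234853 to 125241330, minus strand). It stood at 797, 770 and 743 CPM in the high-dose libraries against 434, 444 and 448 at the low dose (0.85 ± 0.03, adjusted p = 7.4e-25). DNAJB9, a BiP cochaperone and a target of XBP1, stood at 31.7, 30.0 and 26.9 against 11.3, 13.3 and 12.2 CPM (1.31 ± 0.08). The groups did not overlap for either gene, and DNAJB9 at the medium dose, 12.0 to 13.9 CPM, lay within or just above the low-dose range. DNAJC3, another BiP cochaperone (0.88 ± 0.04), and PPIB, a prolyl isomerase (0.82 ± 0.04), had similar changes to HSPA5.

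The genes that bring proteins into the ER, discard misfolded ones and ship the rest rose with the chaperones. Of 32 such genes 29 rose and none fell (median log2 change 0.46), and KDELR3, ATF6 and SAR1B were the 3 not called. SEC61B, a subunit of the translocation channel, stood at 72.2, 72.9 and 64.3 CPM against 39.4, 35.8 and 38.5 (0.93 ± 0.07). SSR1, a subunit of the translocon-associated complex, rose by 0.90 ± 0.04, and SEC24D, which selects cargo for COPII vesicles, by 0.97 ± 0.05. DERL3, of ER-associated degradation, was low, at 0.873 to 1.06 against 0.397 to 0.577 CPM, and its call was lost without low-dose library 2 (adjusted p = 0.052). The anterior gradient protein AGR2, a disulfide isomerase of mucus-secreting cells, rose by 0.54 ± 0.04, from 240 ± 8.42 to 337 ± 26.4 CPM (SD, n = 3), with the medium dose lower than either at 216 ± 2.02.

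The element through which ATF6 acts on ER chaperone promoters, the ER stress element, was looked for in the window from 250 bases before to 50 bases after each gene's start in RefSeq (GRCh38.p14). It was searched on both strands, without mismatch, as CCAAT and CCACG separated by 9 bases of any kind. Of 27305 promoters 22 held it (0.0806%). Among the ER chaperones 6 of the 19 with a promoter in the table held it (31.6%), and among the ER transport genes 1 of 27 (3.7%). The element was described from ER chaperone promoters, so this share follows in part from how the motif was defined. The stretches that hold it are shown for the matched members, 5′ to 3′ on the gene's strand, with the element in capitals (its reverse complement where it lies on the other strand):
HSPA5 (chr9:125241351-125241449, minus): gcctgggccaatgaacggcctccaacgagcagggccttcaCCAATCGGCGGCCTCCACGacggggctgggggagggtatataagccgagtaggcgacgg
HSP90B1 (chr12:103930176-103930379, plus): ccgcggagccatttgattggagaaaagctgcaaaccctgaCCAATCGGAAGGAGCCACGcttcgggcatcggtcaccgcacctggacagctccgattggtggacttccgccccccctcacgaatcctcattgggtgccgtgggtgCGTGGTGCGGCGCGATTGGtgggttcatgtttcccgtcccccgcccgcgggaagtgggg
CALR (chr19:12938359-12938442, plus): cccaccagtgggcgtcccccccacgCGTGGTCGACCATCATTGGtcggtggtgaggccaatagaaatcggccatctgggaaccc
CANX (chr5:179698738-179698836, plus): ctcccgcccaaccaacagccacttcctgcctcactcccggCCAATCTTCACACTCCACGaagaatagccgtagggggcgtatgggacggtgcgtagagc
CRELD2 (chr22:49918514-49918612, plus): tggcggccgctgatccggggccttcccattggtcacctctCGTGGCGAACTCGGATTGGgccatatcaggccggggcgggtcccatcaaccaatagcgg
ERO1B (chr1:236282143-236282208, minus): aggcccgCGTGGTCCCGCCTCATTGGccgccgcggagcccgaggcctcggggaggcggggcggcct
XBP1 (chr22:28800570-28800661, minus): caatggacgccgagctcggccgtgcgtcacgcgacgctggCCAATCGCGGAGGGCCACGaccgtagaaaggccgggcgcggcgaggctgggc

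HSP90B1, the ER member of the HSP90 family, held 2 copies, and the other genes held 1 each. HSP90B1 was at 1103 to 1173 CPM in the high-dose libraries and 680 to 707 at the low dose (0.76 ± 0.02). CANX, the membrane lectin chaperone calnexin, rose by 0.67 ± 0.02 and its soluble relative CALR by 0.42 ± 0.03. CRELD2 rose by 0.70 ± 0.07, and XBP1 itself by 0.40 ± 0.03. Of the 22 genes with the element, 14 were tested, of which 10 were higher and none lower, beside 12.1% and 11.6% of all genes. These counts include the matched members of both ER lists, whose changes are given above. Outside both lists 7 were tested, of which 4 were higher, named here after their values were seen: FICD, which modifies BiP (0.82), SERP1, which stabilises new ER proteins (0.67), TRIM5 (0.17) and EIF2A (0.13). The amino acid response element CARE (TGATG and AAT separated by 1 base, both strands) was in 1.02% of all promoters and in 1 of 22 ATF4 target promoters (4.55%), that of FGF21, and it overlapped none of the stretches printed above. A match describes these letters only, and no match says nothing of the factor.

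The ER genes changed with Cnidii Rhizoma by more than with the 3 extracts compared at the same doses. Astragali Radix, also given at these doses, was not compared. The test was the difference between the change from 20 to 500 µg/mL with Cnidii Rhizoma and that with each other extract, and all such tests share the 6 Cnidii Rhizoma libraries. The difference was called higher at 6.22% of all genes against Rehmanniae Radix Preparata, 7.39% against Paeoniae Radix and 7.1% against Cinnamomi Cortex. It was higher for 19 of 20 ER chaperones against each of the 3 extracts, and for 27, 24 and 28 of the 32 ER transport genes in that order. The chaperones' own median changes with those extracts were 0.02, 0.08 and 0.08, and 0, 9 and 7 of them rose, beside 0.813%, 5.44% and 3.27% of all genes. For HSPA5 the difference was 0.81 against Rehmanniae Radix Preparata, 0.72 against Paeoniae Radix and 0.67 against Cinnamomi Cortex. BHLHA15 differed by 2.78, 2.28 and 3.06 in the same order.

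**Figure D2:**
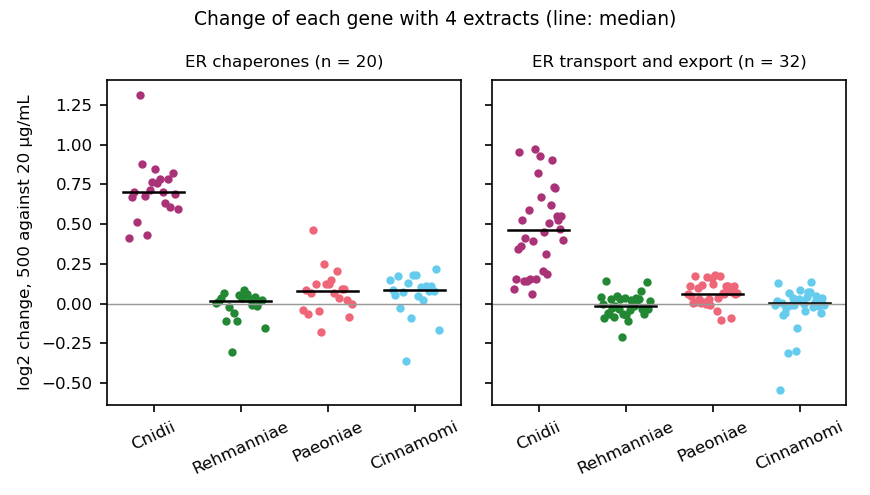
log2 change from 20 to 500 µg/mL (y axis) of each tested ER chaperone (left) and ER transport or export gene (right) with each of 4 extracts (x axis); points are genes and black lines medians. The Cnidii Rhizoma points lie above 0 in both panels, with medians of 0.70 and 0.46, and the medians of the other extracts lie between -0.02 and 0.08.

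Genes of amino acid supply rose in part. Of 23 ATF4 targets 15 rose (median 0.38) and 1 fell, PPP1R15A, a phosphatase subunit that ends the stress response (-0.27, named after its value was seen). ASNS, which makes asparagine, stood at 114, 108 and 103 CPM against 50.8, 53.8 and 52.9 (1.09 ± 0.04, adjusted p = 6.2e-26), and PHGDH, the first enzyme of serine synthesis, rose by 0.64 ± 0.05. VLDLR, a lipoprotein receptor, rose by 1.12 ± 0.13, while DDIT3, the ATF4-driven factor of ER stress death, was at 5.62 to 6.45 CPM at the high dose and 6.09 to 6.51 at the low dose (-0.02 ± 0.12, adjusted p = 0.93). Paeoniae Radix raised 13 of the 23 itself, beside 5.44% of all genes. Against it the difference was higher for 5 and lower for 2, beside 7.39% and 7.85%. Against Cinnamomi Cortex the difference was higher for 13, beside 7.1%.

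Of 22 amino acid transporters 12 rose and 3 fell, or 7 and 3 with the Astragali Radix high-dose libraries in the fit. Besides SLC38A4, the glycine importer SLC6A9 rose by 1.47 ± 0.24, from 0.675 to 0.919 CPM up to 1.85 to 2.7. Those that fell were the proline importer SLC6A20, SLC6A14 and SLC3A1, the last chosen after its value was seen (-1.05). SLC6A20 (ENSG00000163817, chromosome 3, 45755450 to 45796535, minus strand) stood at 3.52, 3.27 and 3.61 CPM against 8.27, 7.58 and 8.08 (-1.16 ± 0.11, adjusted p = 1.8e-11). SLC6A14 was at 0.129 to 0.152 against 0.306 to 0.476 CPM, a depth at which its call was lost on leaving out any library but the first of the low dose. Of 20 cytosolic aminoacyl tRNA synthetases, which load amino acids onto tRNA, 16 rose and none fell, by little: the median was 0.16, and WARS1 changed most (0.34 ± 0.05). With the Astragali Radix high-dose libraries in the fit 6 of the 20 were called.

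Lipid genes moved in opposite directions by role. Of 21 PPAR targets and genes of fatty acid oxidation 15 rose, 1 fell and 5 were not called (median 0.39). FABP1, which carries fatty acids in enterocytes and hepatocytes, stood at 13.1, 12.8 and 11.5 against 3.18, 2.46 and 2.69 CPM (2.21 ± 0.13). The groups did not overlap, and the medium mean was 3.89 CPM. ANGPTL4, a secreted inhibitor of lipoprotein lipase, was at 1.85, 1.67 and 1.56 CPM against 0.115, 0.238 and 0, so its fold rests on few counts at the low dose. Mitochondrial fatty acid import by CPT1A rose in transcript by 0.74 ± 0.04 and the lipid droplet coat PLIN2 by 0.80 ± 0.09. VNN1, a pantetheinase, was the member that fell, from 16.5 to 18.9 CPM down to 10.4 to 11.1 (-0.67 ± 0.07). TXNIP, a glucose-responsive arrestin outside this list, was at 44.4 to 47.0 against 42.4 to 47.6 CPM (0.09 ± 0.04, adjusted p = 0.15).

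Genes that make sterols and fatty acids went the other way by smaller steps. Of 24 genes of cholesterol synthesis and uptake 15 fell and none rose (median -0.20), and 23 had a medium mean between the low and high means. HMGCS1, an early enzyme of sterol synthesis, fell by 0.39 ± 0.08, and INSIG1, which holds back the sterol-sensing factors, by 0.38 ± 0.06. Of 18 genes of fatty acid synthesis 11 fell and 2 rose (median -0.18). ACSS2, which makes acetyl-CoA from acetate (-0.58 ± 0.10), and DGAT2, which makes triglyceride (-0.54 ± 0.07), fell most, and those that rose were AGPAT2 (0.58 ± 0.06) and ELOVL6 (0.27), the latter named after its value was seen. With the Astragali Radix high-dose libraries in the fit 9 of the cholesterol genes and 3 of the fatty acid synthesis genes were called lower.

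Cholesterol genes fell with other extracts too. Rehmanniae Radix Preparata lowered 14 of the 24 on its own (median -0.24, beside 0.62% of all genes) and Cinnamomi Cortex 7 (beside 2.81%). Against Rehmanniae Radix Preparata the difference between the extracts was lower for 2 and higher for 3. Paeoniae Radix raised 10 (median 0.16), beside 5.44% of all genes. Against it the difference was lower for 20, beside 7.85% of all genes. In the PPAR list the difference was higher for 14 of 21 against each of the 3 extracts, beside 6.22%, 7.39% and 7.1% of all genes. The own medians of those extracts were -0.02, -0.05 and 0.02. Paeoniae Radix lowered 5 of the 21 on its own, beside 4.06% of all genes. FABP1 differed by 2.37 from Rehmanniae Radix Preparata, 3.02 from Paeoniae Radix and 1.93 from Cinnamomi Cortex.

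**Figure D3:**
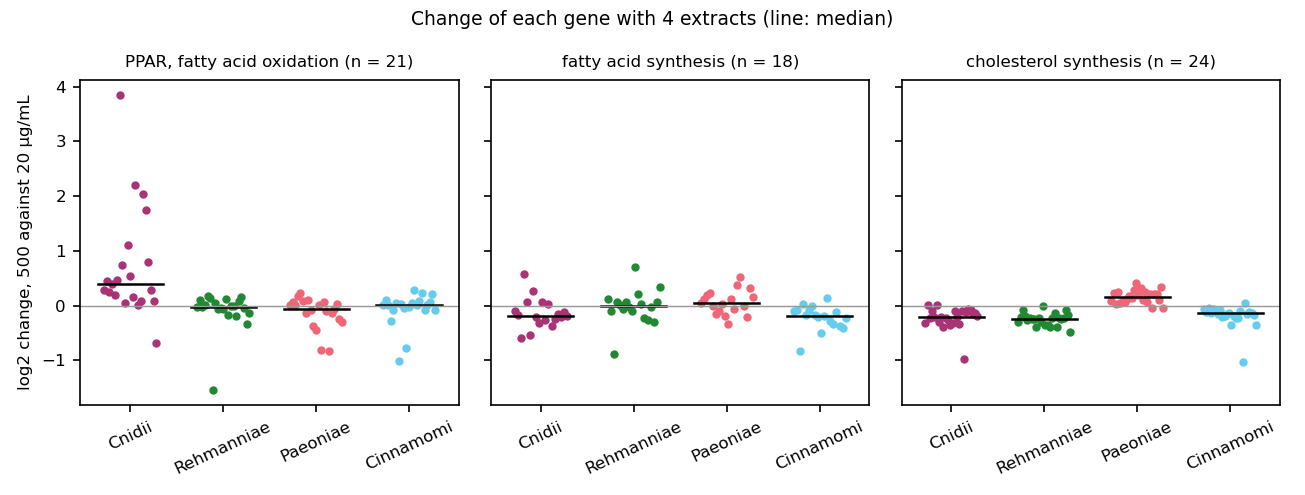
log2 change from 20 to 500 µg/mL (y axis) of each tested gene of 3 lipid lists (panels) with each of 4 extracts (x axis); points are genes and black lines medians. With Cnidii Rhizoma the PPAR list has a median of 0.39 and reaches 3.85, while the cholesterol median of -0.20 lies beside -0.24 for Rehmanniae Radix Preparata and 0.16 for Paeoniae Radix.

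Lipid efflux and bile acid genes were measured in shorter lists. Of 8 tested LXR targets and lipoprotein genes 4 rose: LPCAT3 (0.51 ± 0.04), the LXR alpha gene NR1H3 (0.46 ± 0.05), the sterol exporter ABCG1 (0.45 ± 0.10) and MYLIP (0.26 ± 0.08), whose call was lost without high-dose library 2 or 3 or low-dose library 1 or 2. With Rehmanniae Radix Preparata the log2 change of ABCG1 was 1.58, and its difference from that extract was -1.13. Of 11 tested FXR targets and bile acid genes 1 rose and 4 fell (median -0.07), and the falls numbered 2 on omitting library 1 at 500 µg/mL or library 2 at 20 µg/mL. NR1H4, the bile acid receptor FXR and the member that rose, was at 0.817 to 1.44 against 0.318 to 0.460 CPM (1.56 ± 0.35, adjusted p = 6.1e-04). Its target NR0B2, also called SHP, went from 4.63, 4.68 and 5.24 down to 2.84, 3.15 and 3.04 CPM (-0.64 ± 0.13).

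The NRF2 list had 31 of 31 members higher. Some abundant enzymes of aldehyde clearance rose beside it, but dehydrogenases as a list did not. ALDH1A1, which makes retinoic acid and clears lipid aldehydes (ENSG00000165092, chromosome 9, 72900662 to 73080442, minus strand), stood at 1732, 1641 and 1592 CPM against 900, 870 and 903 (0.94 ± 0.04, adjusted p = 3.5e-25). ALDH3A1 stood at 132, 133 and 133 against 30.1, 29.2 and 30.7 CPM (2.19 ± 0.04), and ALDH3A2, which oxidises fatty aldehydes, rose by 0.82 ± 0.04. In the same family ALDH1A3, another enzyme of retinoic acid synthesis, fell from 25.5 to 27.9 CPM to 10.8 to 11.5 (-1.22 ± 0.10), and the alcohol dehydrogenase ADH1C from 1.85 to 2.22 to 0.532 to 0.688 (-1.67 ± 0.25). Of 16 alcohol and aldehyde dehydrogenases outside the redox and AhR lists 3 rose and 7 fell (median -0.02). The falls numbered 4 on omitting library 3 at 500 µg/mL. Against vehicle 8 were higher and 5 lower, beside 20.2% and 18.1% of all genes. The retinoid dehydrogenase DHRS9 rose by 1.42 ± 0.25, while CYP26A1, a retinoic acid target, was at 0.0759 to 0.215 against 0.308 to 0.460 CPM, with a call lost on leaving out any library but the last of the low dose.

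Of 10 tested PXR and CAR genes 6 rose and none fell (median 0.49). ABCG2, an efflux pump, stood at 182, 191 and 182 CPM against 82.1, 92.5 and 89.7 (1.12 ± 0.04). Of 18 other conjugating enzymes 9 rose and none fell. UGT1A10, the most abundant glucuronosyltransferase entry, stood at 647, 673 and 650 against 374, 394 and 398 CPM (0.80 ± 0.03). UGT1A genes share their downstream exons, so the split of reads among UGT1A1, UGT1A3, UGT1A6, UGT1A8 and UGT1A10 is uncertain. Of 8 tested AhR targets 2 rose, ALDH3A1 and UGT1A6, and none fell (median 0.18), beside 12.1% and 11.6% of all genes. CYP1A1, the classic AhR target, was not called, at 1.06 to 1.33 against 0.654 to 0.873 CPM (0.71 ± 0.42, adjusted p = 0.24).

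Several of the largest falls were in genes of the cell surface and its vesicles. CLIC5, a member of the chloride intracellular channel family that ties the apical membrane to actin (ENSG00000112782, chromosome 6, 45880827 to 46080348, minus strand), stood at 4.73, 4.33 and 4.48 CPM against 19.4, 18.6 and 18.4 (-2.02 ± 0.07, adjusted p = 1.6e-27). SYTL2, an effector of RAB27 in vesicle docking, stood at 13.9, 14.7 and 14.7 against 44.7, 45.2 and 43.7 CPM (-1.58 ± 0.07). Both were intermediate at the medium dose, at 12.2 ± 0.827 and 30.9 ± 0.635 CPM (SD, n = 3). The urea transporter SLC14A1 was at 0.836 to 1.37 against 5.17 to 5.75 CPM (-2.25 ± 0.14). AQP5, a water channel of glands, stood at 19.5, 19.9 and 21.1 CPM against 40.3, 41.7 and 39.8 (-0.96 ± 0.06). The list of channels and vesicle proteins includes CLIC5, SYTL2 and SLC14A1 and was drawn up with earlier results of these data known. Its count of falls is therefore not separate from those values. Of its 25 tested members 12 fell, beside 11.6% of all genes, and 5 rose, beside 12.1%. The latter, named after their values were seen, were the glycerol channel AQP3 (0.73 ± 0.04), SLC9A2 (0.43), SYTL1 (0.37), KCNK1 (0.27) and TRPM4 (0.15). The rises numbered 2 on omitting library 3 at 20 µg/mL, and 3 on omitting library 1 or 3 at 500 µg/mL or library 1 at 20 µg/mL.

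Mucins, keratins and junction genes changed in both directions. MUC13, a transmembrane mucin of the colon (ENSG00000173702, chromosome 3, 124905442 to 124953819, minus strand), stood at 70.2, 68.3 and 64.2 CPM against 144, 135 and 139 (-0.999 ± 0.05, adjusted p = 2.1e-22). CLDN1, a tight junction claudin, stood at 24.5, 25.2 and 26.6 against 46.3, 46.5 and 47.0 CPM (-0.83 ± 0.06), whereas CLDN3 (0.38) and CLDN4 (0.32) rose. LAMA3, a laminin chain of the basement membrane, rose by 0.77 ± 0.07, from 24.5 to 27.3 CPM to 41.2 to 43.7. In all, 9 of 32 members rose and 12 fell.

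The summed epithelial markers given above fell mainly through 2 abundant keratins. KRT8 stood at 4682, 4746 and 4982 CPM against 6569, 6363 and 6330 (-0.37 ± 0.04), and its partner KRT18 at 2889, 2827 and 2853 against 4103, 3959 and 3970 (-0.44 ± 0.03). Both have many processed pseudogenes that can share reads. Of the 10 markers 5 were called lower and 3 higher (median log2 change -0.24, lowest -0.48). EPCAM (0.08), CDH1 (0.15) and LGALS4 (0.12) were those called higher, by small steps. Of these 3 calls 1 was left on omitting library 1 at 500 µg/mL or library 2 or 3 at 20 µg/mL, 1 with scaling to library totals, and 0 with the Astragali Radix high-dose libraries in the fit. KRT20, a keratin of differentiated enterocytes, rose by 0.74 ± 0.06 from 321 ± 18.5 to 520 ± 24.8 CPM (SD, n = 3).

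The carcinoembryonic antigen CEACAM5 rose from 4.75, 6.59 and 7.16 CPM to 22.5, 22.6 and 24.0 (1.95 ± 0.11, adjusted p = 4.1e-19), and CEACAM6, its near relative, from 36.8 to 39.1 up to 67.4 to 69.3 (0.90 ± 0.05). CEACAM genes are close in sequence, and CEACAM1 fell (-0.19). Of 24 enterocyte and brush border genes 8 rose and 4 fell; besides CEACAM1 the latter were VIL1 (-0.37), SLC5A1 (-0.53) and USH1C (-0.14), all named after their values were seen. The falls numbered 2 on omitting library 1 at 500 µg/mL or library 2 at 20 µg/mL. MUC2, the goblet cell mucin, was at 13.8 to 17.5 against 16.8 to 18.2 CPM (-0.11 ± 0.11, adjusted p = 0.55). The stem cell marker LGR5 was at 36.0 to 37.5 against 39.6 to 41.0 CPM (-0.09 ± 0.05, adjusted p = 0.18).

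**Figure D4:**
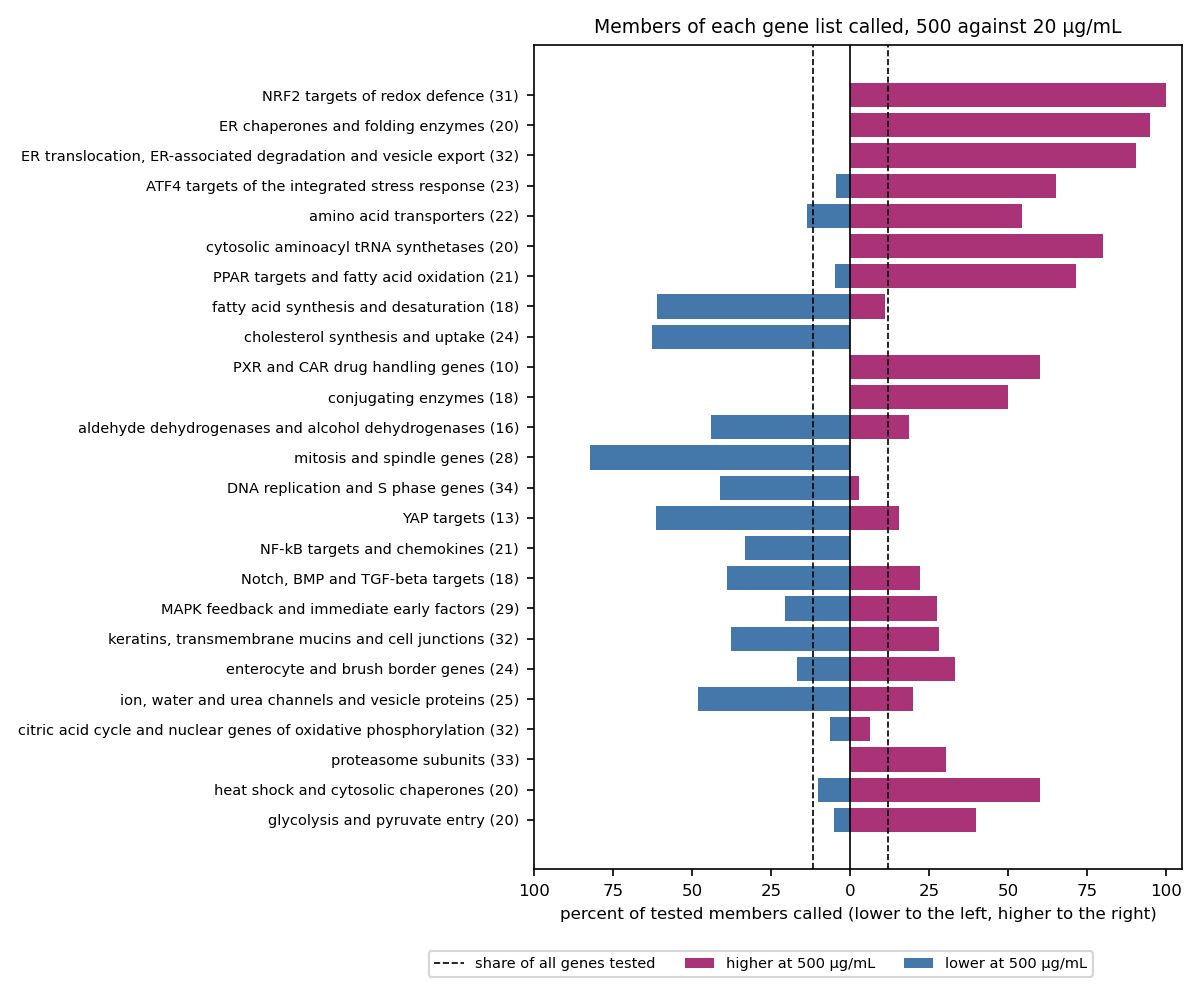
Percent of tested members of 25 gene lists (rows, number tested in parentheses) that were called higher (right of 0) or lower (left of 0) at 500 against 20 µg/mL. Dashed lines mark the share of all genes tested, 12.1% higher and 11.6% lower; the ER, PPAR and tRNA synthetase bars extend to the right and the mitosis, cholesterol and fatty acid synthesis bars to the left.

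Mitosis genes fell together by a small step. Of 28 tested members 23 fell and none rose (median -0.19). TOP2A, the topoisomerase that separates chromosomes, stood at 380, 395 and 356 CPM against 466, 493 and 498 (-0.32 ± 0.03, adjusted p = 2.4e-11). CENPF, a kinetochore protein, stood at 220, 259 and 225 against 299.9, 316 and 313 CPM (-0.35 ± 0.05), and MKI67 fell by 0.29 ± 0.07. The groups did not overlap for any of these, but the medium dose did not lie between them for most members: this held for 6 of 28, and TOP2A was at 483 to 501 CPM there. With the Astragali Radix high-dose libraries in the fit 3 of the 28 were called lower.

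Of 34 DNA replication genes 14 fell and 1 rose (median -0.09), or 3 and 1 with the Astragali Radix high-dose libraries in the fit. CDC6, which loads the replicative helicase, was the gene that rose, from 86.5 to 88.3 CPM to 104.6 to 109 (0.34 ± 0.03). TK1 fell by 0.24 ± 0.04 and RRM1 by 0.21 ± 0.03. Against vehicle 5 of the 34 were lower and 5 higher, beside 18.1% and 20.2% of all genes. The fall in this list thus held against the low dose and not against vehicle. MCM2 was at 190 to 194 CPM with the high dose, 222 to 232 with the low dose and a mean of 190 in vehicle. Mitosis genes were lower against vehicle too, with 20 of 28 called.

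The mitosis changes differed from those of the other extracts, with which none of these genes was called lower. Cinnamomi Cortex raised 14 and Rehmanniae Radix Preparata 2, beside 3.27% and 0.813% of all genes. The difference was lower for 25 genes against Rehmanniae Radix Preparata, 20 against Paeoniae Radix and 26 against Cinnamomi Cortex, beside 6.08%, 7.85% and 6.33% of all genes. The CDK inhibitor CDKN1A was not called (-0.12 ± 0.08, adjusted p = 0.34), and the inhibitor CDKN2C fell by 0.54 ± 0.10. SESN1 (-0.69 ± 0.06) and CCNG2 (-0.64 ± 0.07), both targets of FOXO or p53, fell, while the p53 target PHLDA3 rose (0.76 ± 0.10).

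**Figure D5:**
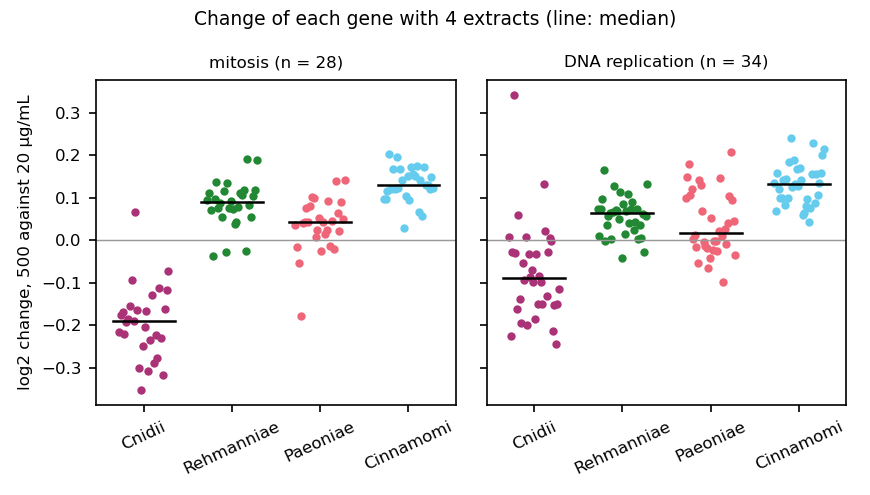
log2 change from 20 to 500 µg/mL (y axis) of each tested mitosis gene (left) and DNA replication gene (right) with each of 4 extracts (x axis); points are genes and black lines medians. The Cnidii Rhizoma median is -0.19 for mitosis and -0.09 for replication, and the medians of the other extracts lie between 0.02 and 0.13.

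YAP targets held more falls than rises, and other signalling lists changed in both directions. Of 13 tested YAP targets 8 fell and 2 rose (median -0.41), the latter being F3 (0.37) and TEAD1 (0.14), named after their values were seen. The rises numbered 1 on omitting library 2 at 500 µg/mL. LATS2, a kinase that restrains YAP, stood at 21.2, 22.1 and 22.7 CPM against 31.7, 31.8 and 30.2 (-0.46 ± 0.05), and the growth factor TGFB2 fell by 0.61 ± 0.09. CCN2 was at 2.13 to 2.97 against 4.17 to 4.44 CPM (-0.68 ± 0.17). Of 29 MAPK feedback and early response genes 8 rose and 6 fell (27.6% and 20.7%, beside 12.1% and 11.6% of all genes). The inhibitor SPRY1 fell from 21.8 to 25.0 CPM to 12.0 to 13.0 (-0.83 ± 0.07), and the EGFR ligand EREG by 0.58 ± 0.06. FOSL1, an AP-1 subunit, rose by 0.47 ± 0.07. Among Notch and BMP genes, the ligand JAG1 rose from 24.2 to 24.9 up to 40.3 to 41.7 CPM (0.79 ± 0.06) and ID2, an inhibitor of differentiation factors, fell from 35.04 to 35.3 down to 20.0 to 20.8 (-0.74 ± 0.06).

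Several NF-kB targets fell. Of 21 NF-kB targets and chemokines 7 fell and none rose (median -0.36, lowest -1.09). The largest called falls were in the chemokines CXCL1 (-1.09 ± 0.20) and CXCL8 (-0.96 ± 0.11). Their medium means, 2.18 and 7.51 CPM, lay above their low means, 2.03 and 7.37 CPM. CXCL8 had a mean of 3.67 CPM at the high dose and 5.30 in vehicle. The medium mean lay between the low and high means for 13 of the 21. IL18, an epithelial cytokine, was at 1.71 to 2.15 against 3.27 to 4.60 CPM (-0.89 ± 0.15). The inhibitor of apoptosis BIRC3, outside this list, was at 3.42 to 4.25 against 5.85 to 8.004 CPM (-0.84 ± 0.13). CXCL3 was at 0.494 to 0.683 against 0.957 to 1.03 CPM, with a call lost on leaving out any library but the second of the high dose or the first of the low dose. Of 27 interferon and antigen presentation genes 2 rose (7.41%, beside 12.1% of all genes) and 7 fell (25.9%, beside 11.6%). The list median was -0.11, and 2 falls were left when the Astragali Radix high-dose libraries were in the fit. OAS1 rose (0.46 ± 0.08) and IFIT1 fell (-0.68 ± 0.16). BDNF, a neurotrophin also made by epithelia, was at 1.07, 0.645 and 0.608 CPM against 2.53, 2.58 and 2.69 (-1.71 ± 0.23). NOX1, the superoxide-producing oxidase of colon epithelium, was at 4.77 to 6.15 against 14.2 to 16.2 CPM (-1.34 ± 0.12).

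Of 17 tested iron and heme genes outside the NRF2 list 5 rose and 3 fell (median -0.04). These were 29.4% and 17.6%, beside 12.1% and 11.6% of all genes. FECH, which inserts iron into heme, stood at 39.6, 38.3 and 36.6 CPM against 17.6, 19.8 and 19.8 (1.05 ± 0.05), and ALAS1, the first enzyme of heme synthesis, rose by 0.43 ± 0.05. The metalloreductase STEAP4 stood at 4.99, 6.83 and 7.22 against 15.4, 15.0 and 17.7 CPM (-1.28 ± 0.09). Of 9 tested metallothioneins and zinc transporters 4 fell and none rose (median -0.39), namely MT1G, MT1F, MT2A and MT1E. The count was 2 on omitting library 1 at 500 µg/mL and 1 with the Astragali Radix high-dose libraries in the fit. MT1E fell by 0.58 ± 0.07, and its log2 change with Paeoniae Radix was -0.99. Metallothionein genes are near-identical, so their values are uncertain.

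Energy and protein turnover lists showed small changes. Of 32 genes of the citric acid cycle and oxidative phosphorylation 2 rose, IDH3A (0.14 ± 0.03) and COX7B (0.16 ± 0.05, a call lost on omitting library 1 at 500 µg/mL or library 3 at 20 µg/mL), and 2 fell, IDH2 (-0.40 ± 0.04) and SDHA (-0.17 ± 0.04). Each count was 6.25% of the list, under the 12.1% and 11.6% of all genes. Against vehicle 18 of the 32 were higher and 2 lower, beside 20.2% and 18.1% of all genes. Of 20 glycolysis genes 8 rose and 1, ALDOC, fell, and the list median of 0.04 became -0.01 with scaling to library totals, where 4 rose. Of 33 proteasome subunits 10 rose and none fell (median 0.09), or 4 with library totals. Of 20 cytosolic chaperones 12 rose and 2 fell. With library totals 8 rose, and with the Astragali Radix high-dose libraries in the fit 5 rose. Among the risers were HSPA1A and HSPA1B, near-identical copies, at 0.41 ± 0.05 and 0.47 ± 0.05. Those that fell, named after their values were seen, were HSPB1 (-0.24) and HSPA4L (-0.19). Of 26 lysosome and autophagy genes 9 rose, 5 fell and 12 were not called (median 0.03). Among those that rose, the autophagy receptor SQSTM1, which NRF2 also drives, stood at 838, 809 and 821 CPM against 435, 404 and 398 (1.04 ± 0.05). The lysosomal protease CTSL rose by 0.91 ± 0.11.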

How the data were processed

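Total RNA of HT29 cells was sequenced, and the authors deposited 1 table of expected counts per gene for all libraries of a larger study. Per the submitters' processing notes FastQC 0.11.9, Trim Galore 0.6.5, STAR 2.7.3a and RSEM 1.3.3 were used with genome build hg38; for the annotation release and the strand setting, nothing is given in the sources used here, so overlapping and antisense genes may share reads. Of 273 columns 213 belong to no sample analysed here and were not used. Deposited expected counts (8.78% of values not whole) were rounded. Entries with no gene name held 0.0504% of counts. Symbols and coordinates came from the supplied gene table and GENCODE 29, promoters from RefSeq.

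Genes were tested with edgeR 4.0.16 (quasi-likelihood F test, TMM, filterByExpr, Benjamini-Hochberg adjustment over 16608 genes, threshold 0.05) in 1 fit of 51 libraries in 18 groups. It left out the Astragali Radix high-dose libraries, which vary far more than the others, and the formulas with 1 library per dose. SE is the absolute log2 change over the square root of F. CPM are rounded counts scaled to the library total, without TMM. The code was tested on simulated data. Named genes came first from the 15 largest changes in each direction outside the NRF2 list (mean of 2 CPM or more). They also came from up to 4 called members per list and 18 preset genes. Any other gene was chosen after its values were seen, or by the promoter match. Members and lists were chosen with earlier results of these data known. Alternatives were other scalings, DESeq2 1.42.0, no filter, other references, other sets of libraries, a replicate block and leaving out each library.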

Additional observations from a re-analysis of the deposited data

Results flagged for a closer look

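Genes whose change from 20 to 500 µg/mL differed between Cnidii Rhizoma and Rehmanniae Radix Preparata were singled out because edgeR's test of the difference itself passed at an adjusted p under 0.05. On the log2 scale the Cnidii Rhizoma change exceeded the other by 3.16 for CYP4F11, 3.14 for SLC38A4, 2.78 for BHLHA15, 2.58 for CYP4F3, 2.43 for LRRC31 and 1.71 for GCKR. It lay below the other by a difference of -1.85 for CLIC5, -1.67 for SLC14A1, -1.44 for SYTL2, -1.44 for ADH1C, -1.41 for BDNF and -1.12 for EPB41L4A. The EPB41L4A difference was lost without high-dose library 2 (-1.11, adjusted p = 0.055), high-dose library 3 (-0.92, adjusted p = 0.11) or low-dose library 3 (-0.95, adjusted p = 0.086). Over all genes the difference passed for 2043 against Rehmanniae Radix Preparata, 2531 against Paeoniae Radix and 2230 against Cinnamomi Cortex. These tests share the 6 Cnidii Rhizoma libraries.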

How the results depend on the processing

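Of 183 named genes called, 164 kept the call without any 1 of the 6 libraries, and RLE size factors changed none. Without each library in turn 1678 to 1818 genes were higher and 1547 to 1723 lower; differences called were 896 to 957 higher and 818 to 935 lower against Rehmanniae Radix Preparata, 1053 to 1150 and 1166 to 1271 against Paeoniae Radix, and 1049 to 1130 and 893 to 991 against Cinnamomi Cortex. With the Astragali Radix high-dose libraries in the fit 921 genes were higher (918 of them also called without those libraries) and 823 lower, and the differences were 363 and 247, 414 and 309, and 437 and 239. Against vehicle 3348 were higher and 3008 lower, and MCM2 (0.01), SDHA (0.01), MT-CO1 (-0.31) and CYP1A1 (-1.11) changed sign; the cause was not tested. Deviations from the group mean correlated at 0.199, 0.102 and -0.085 between high and low libraries of the same replicate number. For different numbers the correlations were -0.227 to 0.148. With 3 libraries per dose these values cannot settle whether replicates were paired. A replicate block gave 2106 higher and 2015 lower, against 2011 and 1922 without it, and changed no call of a named gene. DESeq2 gave 1759 and 1762. Depth limits genes near 0 CPM in 1 group, such as ANGPTL4.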
